A study of Saccharomyces cerevisiae with 10 samples.

Results

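Glycolysis breaks hexose sugars down to pyruvate through a chain of cytosolic enzymes, and in Saccharomyces cerevisiae alcoholic fermentation then turns pyruvate into ethanol with pyruvate decarboxylase and alcohol dehydrogenase. Many steps have isozymes encoded by separate genes, some highly expressed on glucose and others repressed by it. The genes described here are the 31 of this route, from the hexose kinases to the pyruvate decarboxylases and alcohol dehydrogenases. They were listed by function, with earlier results of these data known. They stand among 5656 genes with a probe set of their own on the array. Each of the 31 had at least 1 probe set, and 30 had one that the annotation assigns to that gene alone. TDH2 was represented only by probe sets shared with TDH3 or with TDH1 and TDH3, so it entered no test.

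The cells were commercial baker's yeast from fed-batch culture, pressed and laid on trays in an oven, where air at 37 degrees dried them. Cells at 0 h were the control, and dried cells were taken at 1, 2, 4 and 8 h, with 2 arrays at each time from duplicates that the design text calls independent. The labels name no strain, genotype or mutation, and no group used here was warmed or kept without drying, so heat, time in the oven and water loss cannot be told apart in any comparison with 0 h. Poly(A) RNA was measured as probe set signal on Affymetrix Yeast Genome S98 arrays, and each signal is given below as a multiple of its array's median. A multiple shows a transcript's share of the RNA on the array and not its number per cell, so fewer transcripts of a gene cannot be told apart from more of the others.

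The transcript of PDC6, a minor pyruvate decarboxylase isozyme known for its expression under sulfur limitation, fell in the first hours of drying, and it was the only tested gene of the route called in any comparison. ADH2, the glucose-repressed alcohol dehydrogenase that oxidises ethanol to acetaldehyde, lay above both 0 h arrays on all 8 dried arrays, and was 2.29-fold the 0 h level at 1 h and 2.41-fold at 2 h. Its adjusted p was 0.111 and 0.104 at these times, which misses the threshold of 0.05. The main glycolytic genes, among them TDH3, PGK1, ENO1, CDC19, PDC1 and ADH1, had mean changes between -0.41 and 0.36 log2 units at every time, none of which passed. Changes were tested with limma over 5365 genes that passed a filter on dim signal, and p-values were adjusted by the Benjamini-Hochberg method over all of them.

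In the whole route, 0 of 30 genes were higher and 1 was lower at 1 h, where 2.61% of all tested genes were called in either direction, 2.22% higher and 0.391% lower. The counts were the same at 2 h, where 1.51% of all genes were called, 0.82% higher and 0.69% lower. At 4 h and at 8 h limma called 0 of 30, with 2 genes at an unadjusted p under 0.05 at each time, against 1.45% of all genes at 4 h (1.08% higher, 0.373% lower) and 0.951% at 8 h (0.503% higher, 0.447% lower). For the mean of the 4 dried times against 0 h it called 1 of 30, which was lower, against 2.11% of all genes (1.36% higher, 0.746% lower), and an F test for a change at any time called 1 of 30, against 3.28%. Within the dried samples, 8 h against 1 h gave 0 of 30, with 1 gene at an unadjusted p under 0.05, while 3.45% of all genes were called, 1.03% higher and 2.42% lower. The share of 1 in 30 lay near these background shares. The median change of the 30 genes was -0.09, -0.05, -0.21 and -0.02 log2 units at 1, 2, 4 and 8 h, beside 0.04, -0.05, 0.02 and 0.01 over all genes. The sign of this median turned at every time with a single array left out. Without replicate 1 of 0 h it was 0.08, 0.09, 0.03 and 0.24 at 1, 2, 4 and 8 h, beside 0.08, -0.02, 0.06 and 0.04 over all genes. Without replicate 2 of 2 h it was 0.09 at 2 h, beside -0.04. Without replicate 2 of 8 h it was 0.31 at 8 h, beside -0.03, and without replicate 1 of 8 h it was -0.33, beside 0.07. It was also positive at 2 h with scaling to the 75th percentile, at 0.05, where all genes had the same median of 0.05. At 4 h without scaling it was 0.04, below the 0.27 over all genes.

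Without regard to size, both 1 h arrays were above both 0 h arrays for 2 of 30 genes, ADH2 and SFA1, and below for 10, where 29.4% of all genes were above and 22.8% below. At 2 h 3 genes were above (PFK26, PFK27 and ADH2) and 10 below, beside 18.6% and 24.4% of all genes. At 4 h 3 were above (PFK27, ADH2 and SFA1) and 8 below, beside 25.5% and 18.8%. At 8 h 2 were above (PYK2 and ADH2) and 6 below, beside 19.3% and 16.9%. These counts carry no test, and the genes share the same 2 arrays of 0 h in every one of them.

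**Figure D1:**
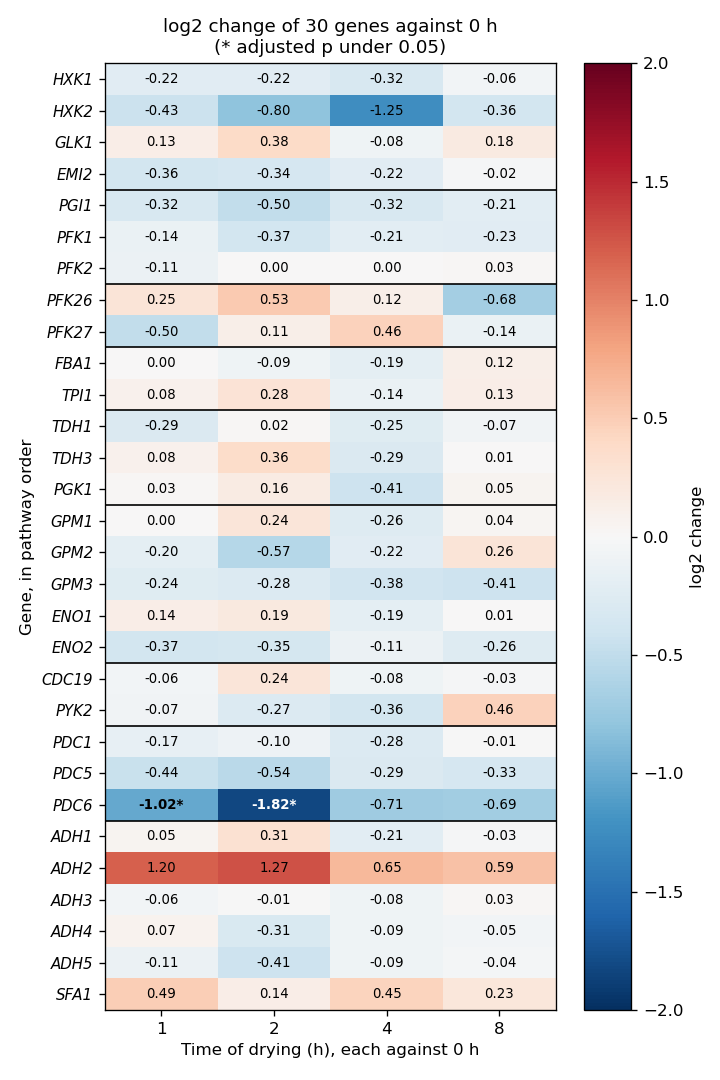
Mean log2 change of each of the 30 tested genes (rows, in pathway order, with lines between enzymatic steps) at 1, 2, 4 and 8 h of drying against 0 h (columns), with 2 arrays at each time. Red is higher and blue is lower than at 0 h, and an asterisk marks an adjusted p under 0.05, which PDC6 reached at 1 and 2 h with -1.02 and -1.82.

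The arrays differed in median signal and in the spread of their brightest signals. Replicate 1 of 2 h and of 8 h were the 2 dimmest arrays, with median intensities of 28.7 and 23.6. The median was 42.3 on replicate 1 of 0 h and 61.0 to 115.4 elsewhere. Of the route, 17 genes were bright, though not all reached the 99th percentile: PFK1 read 26.6 to 41.2 times the array median. The 99th percentile of the signal stood at 131 and 138 times the array median on replicate 1 of 2 h and of 8 h, and at 67.0 to 98.6 on the other 8 arrays. Actin probe sets, whose 3′ over 5′ ratio is higher where cDNA is shorter, gave 6.64 and 6.44 on these arrays, 5.38 on replicate 1 of 0 h and at most 3.90 elsewhere. At 8 h the 17 brightest genes of the route, whose 0 h mean passed 5 log2 units (a limit set after seeing the values), were a median of 2.00 times as high on replicate 1 as on replicate 2, and replicate 1 was higher for 17 of 17. The same ratio was 1.49 at 0 h, and 0.84 at 8 h for the other 13 genes. For TDH3 at 8 h the change was 0.01 ± 0.48 log2 units (SE, n = 2 arrays per time), with a 95% interval of -1.01 to 1.04. The part of this array difference in any result was not tested beyond the other scalings named below.

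**Figure D2:**
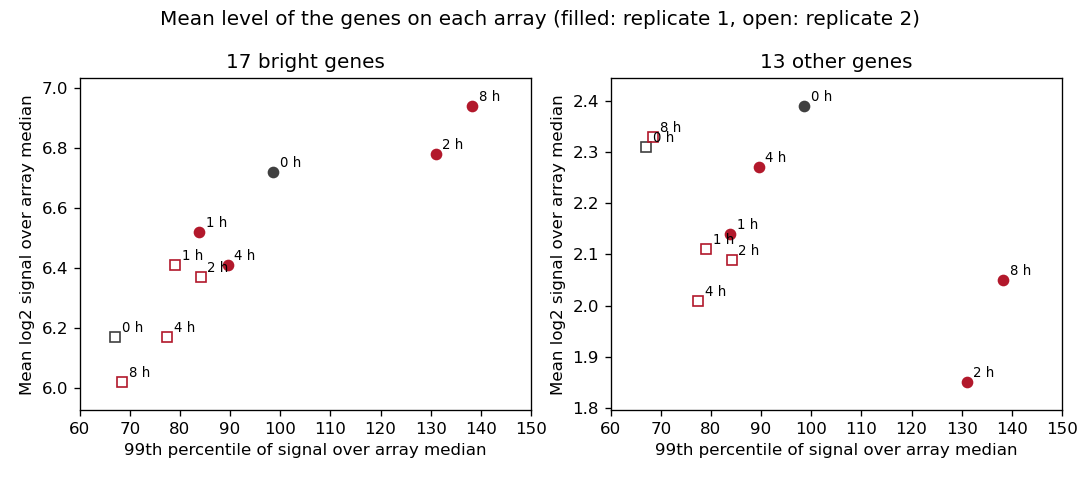
Mean log2 signal over the array median of the 17 bright genes (left) and the 13 other genes (right) on each of the 10 arrays, against the 99th percentile of all signals over the median of that array. Dried arrays are red and 0 h arrays dark, filled circles are replicate 1 and open squares replicate 2; the bright genes' mean was highest, at 6.94 and 6.78, on replicate 1 of 8 h and of 2 h.

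Hexose phosphorylation, the entry to the route, is carried out by the hexokinases HXK1 and HXK2 and the glucokinases GLK1 and EMI2. HXK2, the main hexokinase on glucose and a part of glucose repression, read 18.3 and 19.5 times the array median at 0 h. It read 13.7 and 14.4 at 1 h, 8.85 and 13.3 at 2 h, 15.5 and 4.06 at 4 h, and 13.7 and 15.8 at 8 h. Every dried array thus lay below both 0 h arrays, as did 3.88% of all genes, and the lowest value came from a single 4 h array.

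The change of HXK2 was -0.43 ± 0.44, -0.80 ± 0.44, -1.25 ± 0.44 and -0.36 ± 0.44 log2 units at 1, 2, 4 and 8 h (adjusted p from 0.253 to 0.886). At 4 h it was -2.22 without replicate 1 and -0.28 without replicate 2, so replicate 2 decided its size, and the value without replicate 1 had an adjusted p of 0.00358. HXK1, the hexokinase induced off glucose, ranged from 58.2 to 101 over all 10 arrays and differed from 0 h by -0.32 to -0.06. GLK1 read 65.9 to 142 and differed from 0 h by -0.08 to 0.38. A dimmer probe set shared with YCL042W differed from 0 h by 0.38, 0.18, 0.33 and -0.50 at 1, 2, 4 and 8 h. At 4 and 8 h its sign was opposite to that of the probe set of GLK1 alone, at -0.08 and 0.18. EMI2, a glucokinase paralogue of GLK1, read 18.3 to 28.1 and differed from 0 h by -0.36 to -0.02.

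Phosphoglucose isomerase PGI1 makes fructose 6-phosphate, and the paired subunits PFK1 and PFK2 of phosphofructokinase commit it to glycolysis. PGI1 read 68.8 and 52.4 at 0 h and 40.9 to 56.8 on the dried arrays, and differed from 0 h by -0.50 to -0.21 log2 units, farthest at 2 h (-0.50 ± 0.29, adjusted p = 0.505). PFK1 differed from 0 h by -0.37 to -0.14. PFK2 differed from 0 h by -0.11 to 0.03, with a 95% interval of -0.60 to 0.61 at 4 h, which leaves room for changes of up to about that size.

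PFK26 and PFK27 make fructose 2,6-bisphosphate, the activator of phosphofructokinase. PFK26 read 5.17 and 4.60 at 0 h, 6.61 and 5.07 at 1 h, 6.67 and 7.47 at 2 h, 4.38 and 6.40 at 4 h, and 2.55 and 3.63 at 8 h. Its 2 h arrays were above and its 8 h arrays below both 0 h arrays.

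The changes of PFK26 against 0 h were 0.25, 0.53, 0.12 and -0.68 ± 0.27 log2 units at the 4 times, and the F test gave it an adjusted p of 0.111. Between 8 h and 1 h it differed by -0.93 ± 0.27, with both 8 h arrays below both 1 h arrays (adjusted p = 0.0768), and without replicate 2 of 8 h by -1.18 (adjusted p = 0.0305). PFK27 was dim, at 0.134 to 0.359 times the array median on all arrays, among the dimmest of the route, and its change of -0.50 to 0.46 had a standard error of 0.67. FBP26, which breaks fructose 2,6-bisphosphate down and is not one of the 31, read 2.77 and 4.00 at 8 h against 9.38 and 6.45 at 1 h. It fell by 1.22 ± 0.31 log2 units over that interval (adjusted p = 0.0434). At 0 h FBP26 read 4.38 and 2.94, below both 1 h arrays, though its change at 1 h against 0 h did not pass (adjusted p = 0.0854). At 8 h it differed from 0 h by only -0.11 ± 0.31 (adjusted p = 0.974).

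FBA1 (aldolase) and TPI1 (triose phosphate isomerase) follow, and neither passed. FBA1 differed from 0 h by -0.19 to 0.12 log2 units and TPI1 by -0.14 to 0.28. TPI1 illustrates the array spread at 8 h, where it read 218 on replicate 1 and 85.5 on replicate 2, on either side of the 153 and 102 at 0 h.

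Glyceraldehyde 3-phosphate dehydrogenase is encoded by TDH1, TDH2 and TDH3, and phosphoglycerate kinase PGK1 makes the ATP of the next step. TDH3, the major isozyme, read 219 and 131 at 0 h and 108 to 291 on the dried arrays, and stood at 68.9% to 76.6% of the brightest signal of each array. TDH3 differed from 0 h by -0.29 to 0.36 and TDH1, an isozyme known from stationary phase, by -0.29 to 0.02. The probe set shared by TDH2 and TDH3 differed from 0 h by 0.03, 0.23, -0.37 and 0.00 log2 units at 1, 2, 4 and 8 h, and the one shared by all 3 genes by 0.10, 0.38, -0.19 and 0.07. These follow the TDH3 values in sign at 1, 2 and 4 h, and near-identical coding sequences mean that no probe set here isolates TDH2.

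PGK1 read 98.9 and 90.6 at 4 h against 151 and 105 at 0 h, so both 4 h arrays lay below both 0 h arrays, as did 18.8% of all genes. Its change at 4 h was -0.41 ± 0.43 log2 units (adjusted p = 0.844). After quantile normalization, which gives all arrays the same distribution, it was -0.56 with an adjusted p of 0.0248. At 1, 2 and 8 h PGK1 differed from 0 h by 0.03, 0.16 and 0.05.

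Phosphoglycerate mutase activity comes from GPM1, while GPM2 and GPM3 are paralogues regarded as non-functional. GPM1 differed from 0 h by -0.26 to 0.24 log2 units. GPM2 read 3.94 and 4.00 at 0 h, 3.67 and 3.26 at 1 h, 2.60 and 2.76 at 2 h, 2.98 and 3.92 at 4 h, and 3.78 and 5.98 at 8 h, so it was below both 0 h arrays at 1, 2 and 4 h and overlapped them at 8 h. The change of GPM2 was farthest from 0 at 2 h, at -0.57 ± 0.26 (adjusted p = 0.379). GPM3 read 0.652 and 0.642 at 0 h and 0.386 to 0.623 on the dried arrays, all of them lower, with changes of -0.41 to -0.24 ± 0.42.

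Enolase is encoded by ENO1, expressed with and without glucose, and ENO2, which glucose induces. ENO2 read 22.0 and 21.9 at 0 h and 15.7 to 21.0 on the dried arrays, so that all 8 lay below, and differed from 0 h by -0.37, -0.35, -0.11 and -0.26 ± 0.24 log2 units (adjusted p from 0.560 to 0.941). ENO1 differed from 0 h by -0.19 to 0.19. A probe set shared by both differed from 0 h by -0.08, -0.03, -0.59 and -0.09 at the 4 times, and at 4 h it was farther from 0 than either gene's own probe set (-0.19 for ENO1, -0.11 for ENO2), so the probe sets disagree in size there.

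Pyruvate kinase closes glycolysis, with CDC19 as the main isozyme and PYK2 as a minor one repressed by glucose. CDC19 differed from 0 h by -0.08 to 0.24 log2 units, with a 95% interval of -0.92 to 0.87 at 8 h. PYK2 read 3.13 and 3.53 at 8 h against 2.49 and 2.36 at 0 h, above both, and differed from 0 h by 0.46 ± 0.41 there (adjusted p = 0.832). Its 4 h arrays read 3.21 and 1.11, so they lay on either side of the 0 h arrays.

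Pyruvate decarboxylase turns pyruvate into acetaldehyde and carbon dioxide. PDC1 is the main isozyme, PDC5 is expressed when PDC1 is lost or thiamine is short, and PDC6 is the minor one. PDC6 read 6.05 and 5.62 times the array median at 0 h, 2.82 and 2.94 at 1 h, 1.58 and 1.73 at 2 h, 3.47 and 3.68 at 4 h, and 2.98 and 4.37 at 8 h. No dried array reached the 0 h arrays, and the 2 h arrays were the lowest of all 10.

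PDC6 fell by 1.02 ± 0.25 log2 units at 1 h (adjusted p = 0.0429), to 0.493 of the 0 h level. At 2 h it fell by 1.82 ± 0.25 (adjusted p = 0.00143), to 0.284 of the 0 h level, with a 95% interval of -2.34 to -1.29. At 4 and 8 h the changes were -0.71 ± 0.25 and -0.69 ± 0.25 (adjusted p = 0.243 and 0.330), which did not pass. Over the mean of the dried times PDC6 fell by 1.06 ± 0.19 (adjusted p = 0.00823), and the F test had an adjusted p of 0.00585.

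The call of PDC6 at 2 h held with each of the 10 arrays left out, at -1.88 to -1.75 log2 units. The call at 1 h was lost without any array of 0 h or 1 h, at adjusted p from 0.215 to 0.365, and without either array of 4 h, at 0.0571 and 0.0575. In all, 12 of 22 other settings called it at 1 h and 21 at 2 h. Over the mean of dried times it was lost without either 0 h array, at adjusted p of 0.201 without replicate 1 and 0.115 without replicate 2. The F test call was lost without replicate 1 of 0 h.

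Beside PDC6, PDC5 read 4.62 and 4.96 at 0 h, 3.33 and 3.72 at 1 h, 3.16 and 3.45 at 2 h, 4.35 and 3.52 at 4 h, and 3.75 and 3.86 at 8 h. Every dried array was below both 0 h arrays. Its changes were -0.44, -0.54, -0.29 and -0.33 ± 0.23 log2 units (adjusted p from 0.324 to 0.751). PDC1 differed from 0 h by -0.28 to -0.01. Genes with all 8 dried arrays below both 0 h arrays were PDC6, PDC5, HXK2, ENO2 and GPM3, 5 of 30, where 3.88% of all genes did the same, and the gene with all 8 above was ADH2, 1 of 30, where 4.49% of all genes did so.

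**Figure D3:**
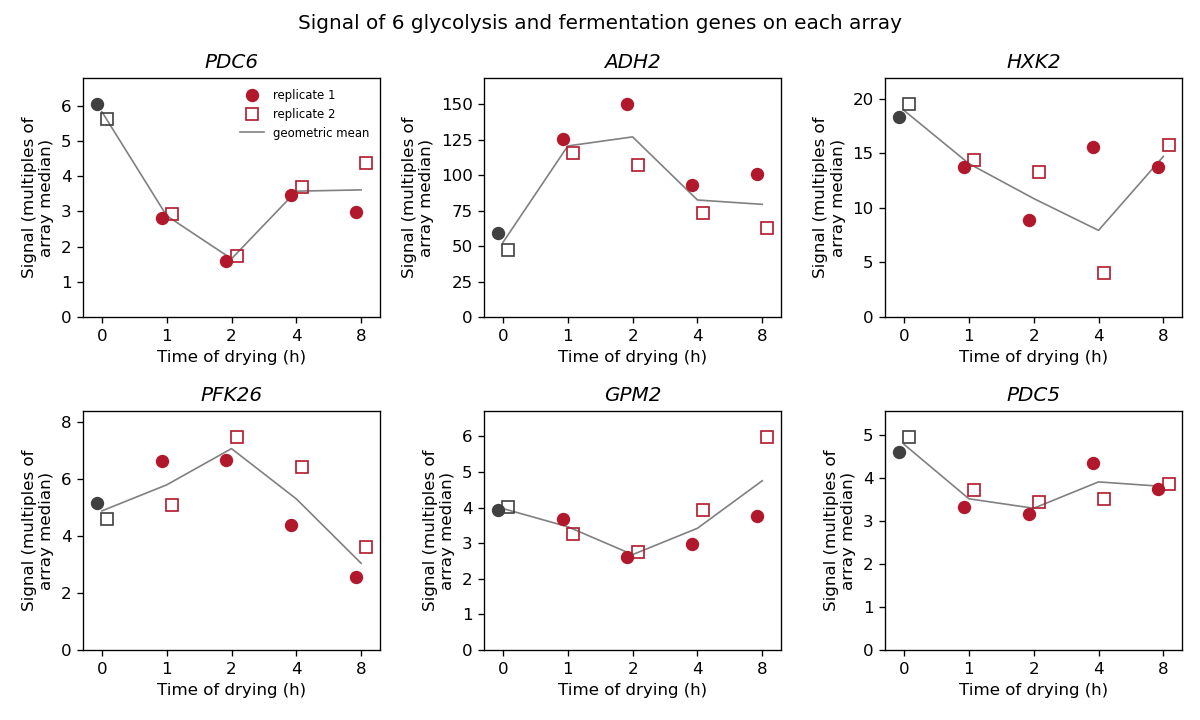
Signal of PDC6, ADH2, HXK2, PFK26, GPM2 and PDC5, the 6 genes with the smallest F test p, on each array as a multiple of the array median (vertical axis, starting at 0) against hours of drying. Filled circles are replicate 1, open squares replicate 2, dark marks 0 h, red marks dried cells and the grey line the geometric mean; PDC6 is lowest at 2 h, at 1.58 and 1.73, and ADH2 highest at 2 h on replicate 1, at 150.

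Alcohol dehydrogenases interconvert acetaldehyde and ethanol. ADH1 is the main fermentative enzyme, ADH2 works in the direction of ethanol use, ADH3 is mitochondrial, and ADH4, ADH5 and SFA1, which also oxidises formaldehyde adducts of glutathione, are further members. ADH2 read 58.9 and 47.1 at 0 h, 126 and 116 at 1 h, 150 and 107 at 2 h, 93.3 and 73.0 at 4 h, and 101 and 62.6 at 8 h. The 1 h and 2 h arrays stood clear of 0 h, while the lower 8 h array came within a few units of the higher 0 h array.

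The change of ADH2 was 1.20, 1.27, 0.65 and 0.59 ± 0.35 log2 units at 1, 2, 4 and 8 h, with adjusted p of 0.111, 0.104, 0.572 and 0.638. The 95% interval was 0.44 to 1.95 at 1 h. After quantile normalization the changes at 1, 2 and 4 h were 1.30, 0.92 and 0.67 with adjusted p of 0.000359, 0.00297 and 0.0201, and after cyclic loess those at 1 and 2 h were 1.18 and 1.05 with adjusted p of 0.00164 and 0.00461. Without replicate 1 or replicate 2 of 8 h the adjusted p was 0.0395 and 0.0414 at 1 h and 0.0302 and 0.0314 at 2 h, at the same changes. Of 22 other settings, 8 called ADH2 at 1 h, 5 at 2 h and 1 at 4 h, and 0 did at 8 h. It was positive in all of them at each time, from 0.25 to 1.51.

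The other alcohol dehydrogenases did not pass. ADH1 read 223 and 137 at 0 h and 104 to 279 on the dried arrays, and differed from 0 h by -0.21 to 0.31 log2 units. ADH3 differed from 0 h by -0.08 to 0.03, ADH4 by -0.31 to 0.07 and ADH5 by -0.41 to -0.04. A second, dim probe set of ADH4, at 0.107 to 0.878 times the array median, differed from 0 h by -1.34 at 4 h and -1.29 at 8 h, against -0.09 and -0.05 for the brighter one, so the pair disagree. SFA1 read 27.4 and 19.8 at 1 h and 24.4 and 21.2 at 4 h, against 19.8 and 14.0 at 0 h, and differed from 0 h by 0.49, 0.14, 0.45 and 0.23 ± 0.27 (adjusted p from 0.476 to 0.891). Both arrays of 1 h and of 4 h lay above both 0 h arrays, at 1 h by a narrow margin for replicate 2.

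Within an array a single scaling factor cancels in the difference between a pair of genes, while a spread that varies with brightness does not. Such differences are given here without a test. The level of ADH2 relative to ADH1 was -1.92 and -1.54 log2 units at 0 h, -0.53 and -0.63 at 1 h, -0.88 and -0.65 at 2 h, -0.84 and -0.89 at 4 h, and -1.47 and -0.74 at 8 h. All 8 dried arrays were above both 0 h arrays, and the mean difference moved by 1.15, 0.96, 0.86 and 0.63. The 2 probe sets differ in affinity, so only the movement of the difference can be read, not its level. The movement can still hold a part of the array spread.

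PDC6 relative to PDC1 was -3.51 and -3.23 at 0 h and -5.34 to -3.38 on the dried arrays, with replicate 2 of 8 h, at -3.38, between the 0 h values and replicate 2 of 4 h level with the lower of them. The mean difference moved by -0.85, -1.72, -0.42 and -0.69 log2 units at 1, 2, 4 and 8 h. At 2 h and 8 h it was -5.34 and -4.74 on replicate 1, and -4.84 and -3.38 on replicate 2. GLK1 relative to HXK2 moved by 0.55, 1.18, 1.17 and 0.55, and replicate 2 of 1 h, replicate 1 of 4 h and replicate 2 of 8 h lay between the 0 h values of 2.57 and 1.78. ENO1 relative to ENO2 moved by 0.50, 0.54, -0.07 and 0.27, and was highest, at 3.72 and 3.61, on replicate 1 of 2 h and of 8 h, the arrays with the widest bright signals. These pairs were picked from 13 after their values were seen.

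**Figure D4:**
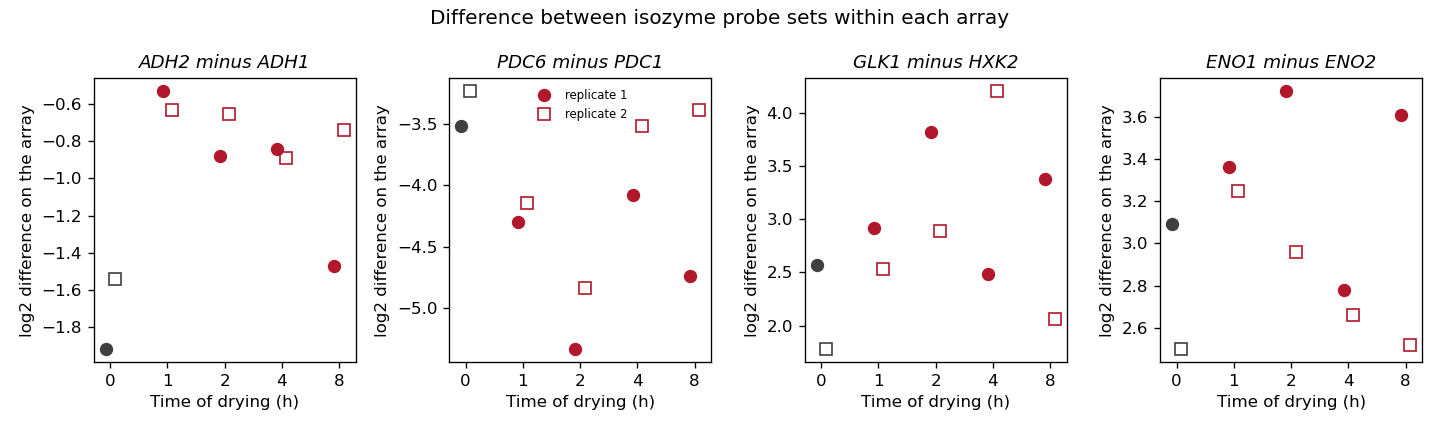
Difference in log2 signal between 4 isozyme pairs on the same array (vertical axis, log2 units) against hours of drying. Filled circles are replicate 1, open squares replicate 2, dark marks 0 h and red marks dried cells; ADH2 minus ADH1 is lowest at 0 h, at -1.92 and -1.54, and PDC6 minus PDC1 is lowest at 2 h, at -5.34 and -4.84.

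Of 12 regulators of these genes, which include GCR1, GCR2 and TYE7, the activators of glycolytic genes, PDC2, an activator of pyruvate decarboxylase genes, and ADR1 and CAT8, the activators of glucose-repressed genes such as ADH2, limma called 0 in any comparison, with 1 at an unadjusted p under 0.05 in the F test. HAP4, a subunit of the activator of respiratory genes, differed from 0 h by -0.71, -0.98, -0.53 and -0.77 ± 0.25 log2 units at 1, 2, 4 and 8 h (adjusted p from 0.0711 to 0.463). Over the mean of dried times HAP4 was at -0.75 ± 0.20 (adjusted p = 0.0698). The general factor ABF1 was at 0.95, 0.64, 1.05 and 0.22 ± 0.37 (adjusted p from 0.237 to 0.940), and REB1 at 0.63, 0.67, 0.65 and -0.11 ± 0.35 (adjusted p from 0.451 to 0.977). None of these values passed. Over all genes the share called ran from 0.951% to 3.45% by comparison. The share of all genes at an unadjusted p under 0.05 was not counted, here or for the other lists. ADR1 differed from 0 h by 0.01, -0.46, -0.36 and -0.42 ± 0.25 log2 units at 1, 2, 4 and 8 h, and CAT8 by 0.19, 0.11, 0.02 and 0.15 ± 0.27. At 1 h, where ADH2 read 126 and 116, ADR1 read 5.41 and 5.09, against 5.68 and 4.78 at 0 h. A link between the regulators and ADH2 was not tested.

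Routes that branch from glycolysis held a few called genes. In the pentose phosphate pathway NQM1, a transaldolase, read 8.56 and 7.54 at 1 h against 3.86 and 3.87 at 0 h, and rose by 1.06 ± 0.23 log2 units at 1 h and 0.98 ± 0.23 at 4 h (adjusted p = 0.021 and 0.0498). SOL4, a 6-phosphogluconolactonase, rose by 1.24 ± 0.27 at 2 h (adjusted p = 0.0311), and RKI1, ribose 5-phosphate ketol-isomerase, fell by 1.46 ± 0.27 between 8 h and 1 h (adjusted p = 0.00758). The other 8 of the 11 genes tested were called in no comparison. The shares of all genes called were 2.61% at 1 h, 1.51% at 2 h, 1.45% at 4 h and 3.45% between 8 h and 1 h.

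The glycerol branch, which takes carbon away at the triose phosphates, had 1 of 6 genes called, in the comparison of 8 h with 1 h, where 3.45% of all genes were called. GPD2, glycerol 3-phosphate dehydrogenase, read 3.48 and 2.30 at 8 h against 1.20 and 1.02 at 1 h, and rose by 1.36 ± 0.32 log2 units over that interval (adjusted p = 0.0285). Against 0 h it did not pass at any time. Limma called FBP26 alone among 6 gluconeogenic counterparts. It called 0 of 8 genes from glucose 6-phosphate to storage sugars, 0 of 13 from pyruvate to acetyl-CoA and 0 of 7 other oxidoreductases in any comparison. Of these 3 lists, 2, 1 and 1 genes had an unadjusted p under 0.05 in the F test. By comparison, 0.951% to 3.45% of all genes were called.

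Markers of other kinds of yeast cell were read on the same arrays. The summed level of 16 sporulation genes was 51.4 to 74.2 times the array median on the dried arrays and 77.6 and 54.0 at 0 h, most of it from SPS100 at 45.8 to 71.2, and limma called 0 of 12 that were tested. The summed level of 15 mating and haploid-specific genes with a probe set was 11.7 to 24.2 on the dried arrays and 12.8 and 8.70 at 0 h. It was highest at 1 h and 2 h on replicate 1, where MFA1 alone read 9.6 and 13.4. On replicate 2 of these times MFA1 read 4.15 and 3.33. Of the 14 tested, 12 were positive at 1 h (median 0.77 log2 units, against 0.04 over all genes) and 14 at 2 h (0.79 against -0.05). At 4 h 9 were positive (0.43 against 0.02) and at 8 h 9 (0.32 against 0.01), and limma called 0. Many of them were dim, with standard errors of up to 0.83 log2 units. AGA2 stood at the floor of 0.1 times the array median on both 0 h arrays. This left AGA2 no room for a negative change. For STE6, STE18, FUS1 and BAR1 only replicate 2 of 0 h was that low, which limited negative changes but did not exclude them. BAR1 differed from 0 h by -0.43 log2 units at 8 h. At an unadjusted p under 0.05 in the F test there were 1 and 2 genes of the lists. Calls over all genes ran from 0.951% to 3.45% by comparison. Their part in the results above was not tested.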

How the data were processed

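The deposited values are linear probe set intensities made with GCOS, as the submitters' processing notes name it (version and settings not given in the sources used here). Descriptions in the labels tell of ratios to 0 h; the intensities used here do not carry that step, because their array medians still run from 23.6 to 115.4. Detection calls were not used.

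Division by the median of 9275 non-control probe sets put the arrays on 1 scale, followed by a floor of 0.1 and log2. Only probe sets assigned to 1 gene and averaging at least 0.2 of the median were tested, and each gene took its brightest. Symbols came from the platform annotation, updated to the R64 table. Limma 3.58.1 in R 4.3.3 fitted group means to all 10 arrays with an intensity trend, so a standard error need not reflect the 2 arrays of 1 time. Simulated data with 200 changed genes among 5365 at 1 h gave 29% of 2-fold and 78% of 4-fold changes back, with 1 false call. The noise was drawn for each gene and array separately. Shifts shared by many genes of an array were not simulated, so these figures do not cover them. The number of arrays limits the precision.

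The genes, the lists and the tests were chosen with earlier results of these data known. Named were all 31 genes and the called genes of the other lists. Every array was given for called genes of the 31 and for the smallest F test p-values up to 6 genes. ADR1, CAT8, GCR1, GCR2, TYE7 and PDC2 were added by role. SPS100, HAP4, ABF1, REB1 and the mating genes named above were added after their values were seen. Alternatives changed the scaling, floor, filter, trend, weights, block, probe set rule and arrays.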

Additional observations from a re-analysis of the deposited data

How the results depend on the processing

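PDC6 was the only gene of the route called in any main comparison, and its 2 h call was lost in 1 of 22 alternatives, without scaling. With quantile normalization 2 genes were called at 1 h, 2 h, over the mean of dried times and at any time (ADH2 and PDC6), 2 at 4 h (ADH2 and PGK1) and 1 between 8 h and 1 h (ADH2, at -0.90). Cyclic loess gave 2, ADH2 and PDC6, in the first 4 of these, and 1, ADH2, between 8 h and 1 h. With the replicate block the count was 2, ADH2 and PDC6, for the 1 h, 2 h, mean and any-time comparisons, where the adjusted p of ADH2 was 0.0143 at 1 h, 0.0107 at 2 h and 0.0145 over the mean; the block changed no other call of these genes. The labels give same-numbered arrays only a number in common. Between times, 4 of 10 correlations of their deviations were over 0.1 (from -0.0585 to 0.175). By this measure 8 of 10 arrays were most like one of their own number, but the 2 arrays of a time always give the same answer. Replicate 1 was above replicate 2 for ADH2, in the median of the 17 bright genes and in the actin ratio at every time. Array weights and leaving out the 2 dimmest arrays gave 2 at 1 h, over the mean and at any time, and fitting the compared groups alone gave 2 at 1 h. The share of all genes called at 1 h was 2.61% in the main fit. It was 3.04% with quantile normalization, 2.6% with cyclic loess and 2.65% with the block. It was 9.34% with array weights and 9.88% with the compared groups alone. Without scaling the count was 0 at 1 h, at 2 h, over the mean and at any time. In these comparisons 1, 0, 1 and 1 of all genes were called without scaling. The median over all genes then became 0.27 at 4 h, with -0.67 at 2 h and -0.29 at 8 h on the lower side. The count was 0 at 1 h without a filter, and 0 at 1 h and at any time with a floor of 0.5 or no variance trend. At 1 h the share of all genes called was 1.93% without a filter, 0.743% with that floor and 0.671% without the trend. At any time it was 0.301% with that floor and 0.261% without the trend. With 1 array left out the count was 0 to 2 at 1 h, over the mean and at any time, 1 to 2 at 2 h, and 0 to 1 at 4 h (HXK2 without replicate 1) and between 8 h and 1 h. At 8 h it was 0 in every alternative. The causes were not tested. Of 4050 recomputed changes of single genes, 26 became called, 14 lost their call and 82 uncalled ones turned sign by over 1 SE; 0 called changes turned sign.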
